A study of Homo sapiens with 3 samples.

Results

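Chromatin bound by YTHDC1 was profiled with ChIP-seq in A549 cells, an established human lung adenocarcinoma line, and 257 of the 6368 called peaks lay at the start of a long non-coding RNA (lncRNA) that stood apart from protein-coding promoters. The 3 samples were replicates of 1 group, YTHDC1 ChIP without knockdown or drug, and the authors pooled their reads before calling peaks. The file therefore held 1 peak set, with a position and 1 score for each peak and with no value per replicate. Neither an input or IgG control nor a knockdown library was analysed, the depth of each sample is unknown, and the labels do not tell separate cultures from repeat libraries. A549 is a single cell line, so the peaks describe these cells only.

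A peak was taken when it overlapped the 200 bases on either side of an annotated transcript start of a lncRNA gene (GENCODE release 44 on hg19). Its midpoint also had to lie more than 1000 bases from the canonical start of every protein-coding gene, and the peak could not touch the 200-base window of any other protein-coding transcript. Of 777 peaks at lncRNA starts, 257 (33.1%) met these conditions. Of the others, 485 lay within 1000 bases of a canonical protein-coding start and 35 lay farther away but in the window of another coding transcript. The 257 peaks made up 4.04% of all peaks.

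YTHDC1 is the nuclear member of the YTH family, whose shared domain recognises N6-methyladenosine (m6A) in RNA. It is known to act on splicing, export and turnover of methylated transcripts, and it can be brought to chromatin through RNA as well as through proteins. lncRNAs are RNA polymerase II transcripts without a long reading frame. Some stay at their site of transcription, some form nuclear bodies, and others mainly serve as hosts from which small RNAs are cut. Many start back to back with a coding gene and share its promoter, and the conditions above set most of those aside. The expression of these lncRNAs in A549 cells was not analysed here, so a peak at a start says only that chromatin there was called.

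The score of a peak is read here as -log10 of its q-value, so that a larger score means a stronger call and 1.30 corresponds to a q-value of 0.05. The strongest peak covered the first exon of a transcript of LINC00910, an intergenic lncRNA on chromosome 17, with a score of 15.4. Next were GATA6-AS1, transcribed from the opposite strand beside the gene for the endoderm factor GATA6, with 8.30, and 2 lncRNAs named only by identifiers, ENSG00000289377 with 6.12 and ENSG00000262879 with 6.08. IER5L-AS1, the fifth, had a score of 5.29 in the widest of the 257 peaks. The hg19 sequences of these sites are shown because the strongest calls can then be read base by base. MALAT1, an abundant RNA of nuclear speckles, is added as the highest-scoring gene of the list of nuclear and chromatin lncRNAs used further on. Each runs 5′ to 3′ on the lncRNA's strand from 250 bases before the start to 50 bases from it, with the start at base 251. Capitals mark letters that match the promoter motifs described further on.
LINC00910 start, chr17:41466143-41466442 (- strand): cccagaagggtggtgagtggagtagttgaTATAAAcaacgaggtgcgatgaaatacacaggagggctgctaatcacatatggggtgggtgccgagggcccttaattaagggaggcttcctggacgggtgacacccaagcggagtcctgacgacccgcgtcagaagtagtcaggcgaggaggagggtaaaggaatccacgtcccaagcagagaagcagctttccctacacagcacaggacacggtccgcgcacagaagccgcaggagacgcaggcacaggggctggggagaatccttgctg
GATA6-AS1 start, chr18:19747693-19747992 (- strand): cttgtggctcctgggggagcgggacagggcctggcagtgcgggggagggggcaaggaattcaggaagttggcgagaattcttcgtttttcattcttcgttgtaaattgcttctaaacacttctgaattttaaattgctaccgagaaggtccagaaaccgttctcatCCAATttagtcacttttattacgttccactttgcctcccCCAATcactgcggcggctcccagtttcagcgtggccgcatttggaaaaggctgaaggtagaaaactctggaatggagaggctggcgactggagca
ENSG00000262879 start, chr17:45144769-45145068 (- strand): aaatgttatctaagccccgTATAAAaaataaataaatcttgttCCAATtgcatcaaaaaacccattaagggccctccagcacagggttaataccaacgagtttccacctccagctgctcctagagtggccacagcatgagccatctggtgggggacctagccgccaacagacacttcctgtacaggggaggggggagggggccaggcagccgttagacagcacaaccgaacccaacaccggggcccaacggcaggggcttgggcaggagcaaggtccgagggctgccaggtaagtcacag
IER5L-AS1 start, chr9:131937836-131938135 (+ strand): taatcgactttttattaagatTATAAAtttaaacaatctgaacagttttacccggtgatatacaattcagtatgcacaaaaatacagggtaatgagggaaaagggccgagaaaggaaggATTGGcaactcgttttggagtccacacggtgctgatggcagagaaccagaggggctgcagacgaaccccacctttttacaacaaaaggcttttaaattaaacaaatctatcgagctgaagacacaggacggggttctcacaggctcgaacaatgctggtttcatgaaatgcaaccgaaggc
MALAT1 start, chr11:65267444-65267743 (+ strand): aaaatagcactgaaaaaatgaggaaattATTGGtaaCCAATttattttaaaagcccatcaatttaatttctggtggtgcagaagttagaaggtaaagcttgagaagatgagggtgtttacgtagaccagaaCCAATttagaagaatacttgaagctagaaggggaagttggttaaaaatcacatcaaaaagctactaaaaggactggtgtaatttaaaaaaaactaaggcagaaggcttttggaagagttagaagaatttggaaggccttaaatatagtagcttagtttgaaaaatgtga

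In these 5 windows the start lay inside the peak, and only that of GATA6-AS1 was the canonical start of its gene. In others the peak lay wholly downstream of the start, and there the centre of the peak itself is shown. They are ENSG00000289377, MIR31HG, the host of miR-31, and NORAD, a cytoplasmic RNA that binds Pumilio proteins and is induced by DNA damage. The NORAD stretch is the whole peak of 248 bases, inside the single exon of the RNA, with a GC content of 71.4%. The MIR31HG stretch holds 32 CpG dinucleotides in 300 bases.
ENSG00000289377 peak, chr1:234908143-234908442 (- strand): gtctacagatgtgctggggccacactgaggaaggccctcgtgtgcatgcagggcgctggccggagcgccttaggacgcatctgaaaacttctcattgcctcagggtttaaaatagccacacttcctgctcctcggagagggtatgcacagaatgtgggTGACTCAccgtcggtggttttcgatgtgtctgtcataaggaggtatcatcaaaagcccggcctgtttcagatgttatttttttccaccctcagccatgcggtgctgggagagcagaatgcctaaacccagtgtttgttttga
MIR31HG peak, chr9:21559148-21559447 (- strand): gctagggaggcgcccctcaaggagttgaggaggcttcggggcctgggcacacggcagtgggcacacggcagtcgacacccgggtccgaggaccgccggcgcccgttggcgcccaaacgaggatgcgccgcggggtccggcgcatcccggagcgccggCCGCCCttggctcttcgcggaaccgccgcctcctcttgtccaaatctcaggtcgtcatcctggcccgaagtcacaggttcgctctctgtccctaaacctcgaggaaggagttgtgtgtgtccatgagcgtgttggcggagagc
NORAD peak, chr20:34638526-34638773 (- strand): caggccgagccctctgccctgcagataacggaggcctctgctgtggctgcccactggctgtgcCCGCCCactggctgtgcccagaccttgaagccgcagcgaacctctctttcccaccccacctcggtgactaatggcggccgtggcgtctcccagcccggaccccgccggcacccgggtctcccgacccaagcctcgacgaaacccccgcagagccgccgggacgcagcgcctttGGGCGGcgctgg

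The windows differed in base composition. The MALAT1 window had a GC content of 33.0% and 3 CCAAT boxes but no GC box. It lies within the gene, at a peak whose midpoint is 2531 bases past the canonical start, and not at the 5′ end of the RNA. The LINC00910 window had a GC content of 58.0% and a single TATA box well upstream of the start. The NORAD stretch is a peak downstream of the start and not a start window, and it held 2 GC boxes and 23 CpG dinucleotides. The NORAD start window had a GC content of 57.0% and 1 CCAAT box but no GC box. A motif match describes the letters of the window and is not evidence that a factor was bound there.

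Over the 257 peaks the median score was 1.39 (95% order-statistic interval, 1.26 to 1.51), with quartiles of 0.998 and 2.04 and a range of 0.651 to 15.4. A q-value under 0.05 was reached by 138 of them (53.7%, 95% Wilson interval 47.6 to 59.7), beside 52.1% of all 6368 peaks, so that the share was close to the background. All intervals given here cover the counting of peaks only. The median was 1.42 for the 2243 peaks at canonical protein-coding starts, 1.42 for the 349 peaks at other coding starts and 1.26 for the 2974 peaks at no annotated start. A score above 3 was found for 27 of the 257 (10.5%) and for 8.45% of all peaks. Only LINC00910 exceeded 10, a score passed by 44 peaks in the whole set.

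The width of the peaks had a median of 383 bases (95% order-statistic interval, 361 to 418), with quartiles of 281 and 604 bases. Over all peaks the median was 348 bases, and at canonical coding starts it was 386 bases. Peaks of 800 bases or more were 26 of the 257 (10.1%), beside 5.03% of all peaks, 6.11% of those at canonical coding starts, 10.0% of those at other coding starts and 3.36% of those at no start. Any base of a peak could meet a start window, so wide peaks entered the start classes more easily. The class at no start lost them in the same way. With the midpoint inside the 200-base window, the median width was 361 bases. The peaks with a q-value under 0.05 had a median width of 437 bases, but the strongest peak was not among the widest. The LINC00910 peak was 445 bases wide, whereas the peak at LINC01465 and MIRLET7IHG reached 1899 bases with a score of 1.26, below the value for a q-value of 0.05.

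**Figure D1:**
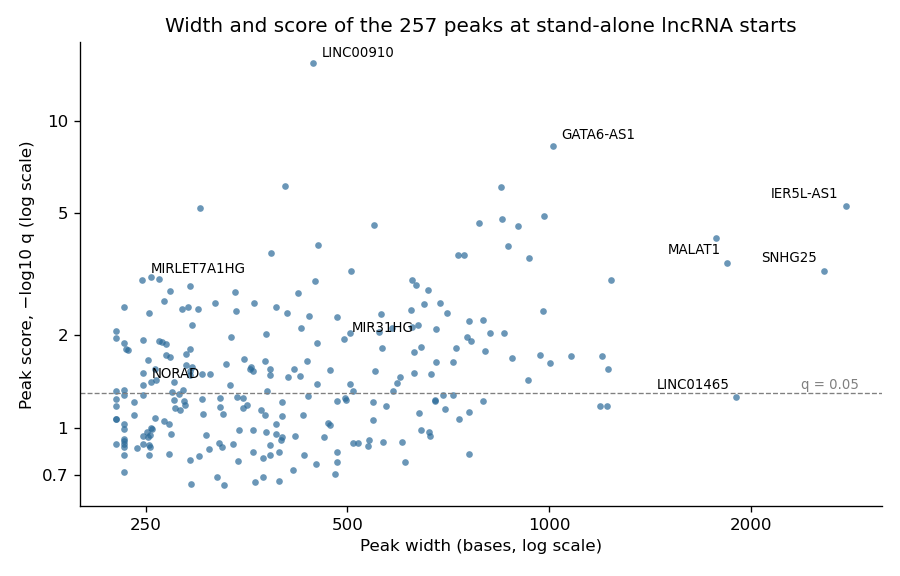
Width in bases (x axis, log scale) against score in -log10 q (y axis, log scale) for the 257 peaks, 1 point for each peak, with the dashed line at a q-value of 0.05. LINC00910 is highest at 15.4, and IER5L-AS1 at 2768 bases and SNHG25 at 2571 bases lie farthest to the right.

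LINC00910 led the set by a wide margin. Its peak, chr17:41465967-41466411 on hg19, had its midpoint 3 bases downstream of a transcript start, in exon 1. That start is not the canonical start of LINC00910, relative to which the midpoint lay at -509. A second lncRNA, ENSG00000288909, starts within 1000 bases on the opposite strand. No 31-base word of the peak occurs elsewhere in hg19. That count cannot show copies that the assembly leaves out, and copy number at this site was not measured.

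GATA6-AS1 had a peak of 1013 bases with its midpoint 200 bases downstream of the canonical start, in an intron, and 2008 bases from the start of GATA6. The ENSG00000289377 peak, of 404 bases, lay in exon 1, with IRF2BP2, a transcriptional corepressor gene, as the nearest coding gene at 162368 bases. The ENSG00000262879 peak, of 848 bases, lay in an intron, 32946 bases past the canonical start of its gene. IER5L-AS1 differed from these. Its peak of 2768 bases lay over the coding gene IER5L, in an exon, with the midpoint 2313 bases from the start of IER5L.

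The next 5 scores lay between 4.58 and 5.21. ENSG00000233547 (5.21) starts antisense inside TCF7L2, which encodes a transcription factor of the Wnt pathway, and the peak midpoint was 1864 bases from the TCF7L2 start. ENSG00000287670 had a score of 4.90 and ENSG00000290039, which starts inside the testis gene TEX14, had 4.65. Both of those peaks also lay over copies of spliceosomal snRNA genes. LINC02136 (4.78) had its midpoint at position -599, the farthest upstream of the 257. DIO3OS (4.58), on the strand opposite the imprinted thyroid hormone deiodinase gene DIO3, had its midpoint 3533 bases from the DIO3 start.

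With regard to the start itself, the midpoints were spread on both sides. Of the 257 midpoints, 144 lay downstream (56.0%, 95% Wilson interval 49.9 to 62.0), 112 upstream and 1, at SNHG17, on the start. The median position was 32 bases downstream, with quartiles of -99.0 and 192 and a range from -599 to 1380. The fullest 100-base bins were the 100 bases before the start with 48 midpoints and the 100 bases after it with 44. Closeness to a start was demanded by the choice of peaks, so the concentration within 200 bases (159 midpoints, 61.9%) is a description. The start lay inside the peak in 164 cases (63.8%). Midpoints at or past the start fell mostly in exon 1 (94 of the 257), then in an intron (41), in exon 2 (3) or past the end of a short transcript (7).

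**Figure D2:**
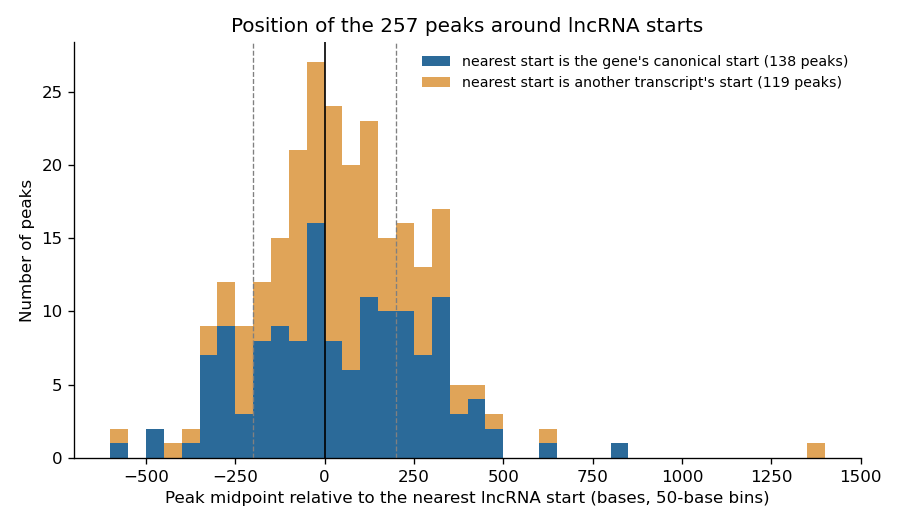
Peak midpoints relative to the nearest lncRNA start in bases (x axis, 50-base bins, negative values upstream) against the number of peaks (y axis), for 138 peaks nearest a canonical start (blue) and 119 nearest another transcript's start (orange); dashed lines mark 200 bases. Midpoints lie on both sides of the start, 144 downstream and 112 upstream, with a single midpoint at 1380 bases.

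The start nearest to the midpoint was the gene's canonical start in 138 peaks (53.7%) and that of another transcript in 119. For these 119, the midpoint lay inside the lncRNA gene in 104 (87.4%) and more than 1000 bases from the canonical start in 40 (33.6%). MALAT1 was such a case. Its peak of 1844 bases had its midpoint at -52 from a transcript start that lies within the gene, 2531 bases past the canonical start, so the peak covers the body of the RNA and not its 5′ end. At NEAT1, the scaffold of paraspeckles, the midpoint lay 467 bases past the canonical start and the score was 1.04. Of the 112 midpoints upstream of their nearest start, 36 (32.1%) were inside the gene of that start. The median score was 1.35 at canonical starts and 1.41 at the others.

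A peak touched the starts of 1 lncRNA gene in 233 cases, of 2 genes in 23 and of 3 genes in 1, the peak shared by LINC01465, ENSG00000275180 and MIRLET7IHG. In all, 272 of 18702 lncRNA genes had such a peak (1.45%), and 785 (4.20%) had a peak at a start of any kind. Of the 272 genes, 263 had 1 peak, 8 had 2 and LINC00511 had 3. Genes with a peak had more annotated starts, with a median of 2 and with 5 or more in 34.6%, beside a median of 1 and 11.6% for all lncRNA genes. Each start adds a window in which a peak can be counted. The share of genes with a peak was 0.916% for genes with a single start, 1.58% for 2 to 4, 3.20% for 5 to 9 and 6.19% for 10 or more. Single-exon genes were 23.2% of the 272 and 16.8% of all lncRNA genes. For 125 of the 257 peaks (48.6%) the nearest gene had no symbol beyond its identifier.

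LINC00511, reported in lung tumours, had its 3 peaks at 3 separate starts of a gene of 350380 bases. Their scores were 1.80, 1.62 and 1.27, and the midpoints lay 154, 127164 and 763 bases past the canonical start. DLGAP1-AS2 had peaks of 2.42 and 0.950, each in the first exon of a different transcript. ENSG00000267598, antisense to the immediate early gene IER2, had 2.11 and 0.998, and both midpoints lay in an exon of IER2. LINC01004, antisense to the chromatin regulator gene KMT2E and with both midpoints inside that gene, had 1.53 and 1.38. LINC01122, whose nearest coding gene is FANCL of the Fanconi anaemia pathway, had 1.51 and 0.818. None of these 11 peaks came near the leading sites above. The remaining genes with a pair of peaks were LIPE-AS1, MIR9-3HG, MIRLET7A1HG and ZFAS1, and 25 of the 272 genes, LIPE-AS1 and MIRLET7A1HG among them, also held a peak away from any start.

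The distance to the nearest canonical protein-coding start had a median of 29342 bases, with quartiles of 8111 and 77949 bases and a range of 1039 to 1419464 bases. Within 5000 bases, 41 of 54 peaks (75.9%, 95% Wilson interval 63.1 to 85.4) had a coding neighbour on the strand opposite to the lncRNA, and beyond 10000 bases 101 of 181 (55.8%, 48.5 to 62.8). In the nearest group, 1000 to 2000 bases away, 26 of 30 were on the other strand. A start on the opposite strand within 1000 bases of the lncRNA start was found for 71 peaks (27.6%), a lncRNA start in 41 and a protein-coding start in 24. The median score was 1.28 with an opposite start and 1.45 without.

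**Figure D3:**
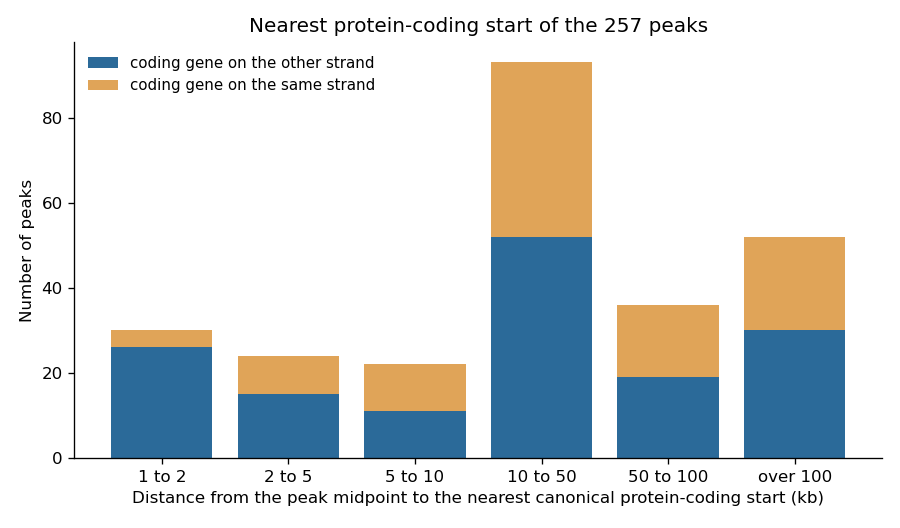
Number of peaks (y axis) by distance in kilobases from the peak midpoint to the nearest canonical protein-coding start (x axis), with the coding gene on the strand opposite to the lncRNA in blue and on the same strand in orange. The 10 to 50 kb class is fullest with 93 peaks, and in the 1 to 2 kb class 26 of 30 coding genes are on the other strand.

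Inside the body of a protein-coding gene lay 64 of the 257 midpoints (24.9%, 95% Wilson interval 20.0 to 30.5), 52 of them with the lncRNA antisense to it, 11 in the same orientation and 1, at IER5L-AS1, with both. The share was 64.0% over all peaks and 48.6% among peaks at no annotated start. The distance from coding starts that was demanded of the 257 lowers this share. Only 19 of the 64 were in an exon. Their median score was 1.49, beside 1.38 for those outside coding genes.

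The peaks at the edge of the conditions were as follows. The closest peaks kept beyond 1000 bases of a coding start were at SLC26A4-AS1 (1039 bases, score 0.816), ENSG00000275857 (1044 bases, 1.64) and, at the same distance, ENSG00000286492 (1044 bases, 0.912). The closest left out were at RNASEH2B-AS1 (989 bases, 2.24) and SPNS2-AS1 (969 bases, 3.72). At the 200-base limit, ENSG00000250934 (200 bases, 3.91) and ENSG00000287742 (199 bases, 1.24) were kept, and ENSG00000288935 (207 bases, 1.64) and ENSG00000289886 (217 bases, 1.02) were not.

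Small RNA genes lay under 11 of the 257 peaks (4.28%, 95% Wilson interval 2.41 to 7.50), beside 56 of all 6368 peaks (0.879%) and 0.535% of the peaks at canonical coding starts. Of the 27 peaks with a score above 3, 4 were of this kind. These 4 were ENSG00000287670 over RNU2-63P (4.90), ENSG00000290039 over RNU1-60P (4.65), ENSG00000285646 over RNU5E-1 and RNU5E-4P (4.16), and SNHG25 over SNORD104 (3.25). The genes RNU1, RNU2 and RNU5 encode spliceosomal snRNAs, and RNU2-63P, RNU1-60P and RNU5E-4P are by name pseudogene copies. At ENSG00000287670 the peak midpoint lay 220 bases from the start of the snRNA copy and 453 bases from that of the lncRNA, whereas at ENSG00000285646 both distances were 837 bases. At ENSG00000287528 the midpoint lay 1 base from the start of MIR4683. Which transcript such a peak belongs to was not tested.

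The snRNA copies are repeated sequences, so reads there can be hard to place. The share of 31-base words that occur elsewhere in hg19 was 15.2% in the ENSG00000285646 peak, 9.52% in the ENSG00000290039 peak and 0.105% in the ENSG00000287670 peak. Over the whole set, 212 of the 257 peaks (82.5%) had no repeated word, beside 82.7% of all peaks. Copies that the assembly leaves out do not enter these counts. None of the 257 had more than 23.7% of its words repeated, whereas 69 of all peaks had over 50%. Only 4 of the 257 lay within 100000 bases of an assembly gap of 10000 bases or more.

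Named groups of lncRNAs were counted next, with the 1.45% of all lncRNA genes as the background. For lncRNA genes with 10 or more annotated starts, the share was 6.19%. The lists were drawn up with earlier results of these data known, so the counts are given without a test. Of 23 annotated lncRNAs of nuclear bodies and chromatin, 3 had a peak (13.0%). They were MALAT1 with 3.45, JPX, an activator in X-chromosome inactivation, with 1.60 and NEAT1 with 1.04. The list had a median of 17 annotated starts, and AIRN and CCDC26 were among those without a peak. Of 14 lncRNAs of the p53 response and DNA damage, 3 had a peak (21.4%), NORAD with 1.38, NEAT1, and MIR34AHG, the host of the p53-induced miR-34a, with 0.776. Only the NORAD peak reached a q-value under 0.05. This list had a median of 7.50 annotated starts, and CDKN2B-AS1 and DDX11-AS1 were among its genes without a peak.

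Of 27 lncRNAs reported in lung carcinoma, 8 had a peak (29.6%, 95% Wilson interval 15.9 to 48.5), and 6 of these had a q-value under 0.05. After MALAT1, the highest were MIR31HG with 1.95, LINC00963 with 1.89 and LINC00511 with 1.80. The other 4 were LINC01116, MIR22HG, SNHG1 and VPS9D1-AS1. In this list the median was 9 annotated starts, and 13 of the 27 genes had 10 or more. AFAP1-AS1 and CCAT2 had no peak at any start, and the nearest peak midpoint to AFAP1-AS1 was 51631 bases away.

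Of the 8 lists, the highest share was found for hosts of small nucleolar RNAs (snoRNAs), which are cut from their introns and guide chemical modification of ribosomal RNA. A peak was found at 11 of 31 such genes (35.5%, 95% Wilson interval 21.1 to 53.1). SNHG25 had a score of 3.25, SNHG11 1.89, SNHG26 1.53 and SNHG17 1.39, and SNHG1, SNHG5, SNHG12, SNHG28, SNHG29, SNHG30 and ZFAS1 lay below 1.30. The peaks were thus numerous and mostly weak, with 4 of the 11 below a q-value of 0.05 and a median of 1.18. The list had a median of 10 annotated starts, and 16 of its genes had 10 or more. DANCR and GAS5 had no peak at a start, although a peak midpoint lay 1369 bases from GAS5. The SNHG25 gene is 540 bases long and its peak 2571 bases wide, with a midpoint 1380 bases past the nearest start. That midpoint lay beyond the SNHG25 transcript, in an exon of the protein-coding gene TEX2 on the opposite strand.

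Of 81 microRNA host genes, 11 had a peak (13.6%, 95% Wilson interval 7.76 to 22.7), 5 of them with a q-value under 0.05. The highest were MIRLET7A1HG with 3.03, MIR762HG with 2.92, MIR9-3HG with 2.02 and MIR31HG with 1.95. MIRLET7A1HG, which carries a cluster of let-7 genes, had a second peak of 1.21, and the second peak of MIR9-3HG, with 0.800, lay over MIR9-3 itself. MIRLET7IHG shared the peak of 1899 bases that also covers MIRLET7I, with a score of 1.26. MIR22HG, MIR29B2CHG, MIR34AHG, MIR3681HG, MIR663AHG and MIR9-1HG made up the rest. MIR1-1HG, which hosts a muscle microRNA, and MIR100HG had no peak. The 81 host genes had a median of 5 annotated starts, and 23 of them had 10 or more. A peak at a host start does not measure the microRNA.

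Some mature microRNAs of these hosts, all from the 5p arm, are shown because the let-7 members share a seed. The 4 let-7 members come from 2 host genes on chromosomes 9 and 12. The 3p products, miR-762 and miR-3681 are left out. Capitals mark the seed, bases 2 to 8, which pairs with target RNAs. The sequences are from RefSeq (GRCh38.p14).
let-7a-5p: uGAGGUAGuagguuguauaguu
let-7d-5p: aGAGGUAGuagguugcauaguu
let-7f-5p: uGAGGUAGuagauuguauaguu
let-7i-5p: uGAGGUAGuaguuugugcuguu
miR-9-5p: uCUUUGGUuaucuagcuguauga
miR-31-5p: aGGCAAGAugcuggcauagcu
miR-34a-5p: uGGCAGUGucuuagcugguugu

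The let-7 microRNAs repress growth genes such as those of the RAS family. The let-7a, let-7d and let-7f members come from the MIRLET7A1HG locus, with a host score of 3.03, and let-7i from MIRLET7IHG. MIR9-3HG with 2.02 and MIR9-1HG with 0.707 both carry a gene of miR-9, and MIR34AHG had 0.776.

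Groups defined by name gave lower shares. A peak was found at 33 of 1832 antisense lncRNAs (1.80%), 39 of 2231 LINC genes (1.75%) and 3 of 588 divergent lncRNAs (0.510%), the last being ITGB1-DT with 3.04, GSK3B-DT with 2.53 and DOCK9-DT with 1.81. When peaks shared with coding promoters were counted as well, the shares were 9.28% for antisense, 17.3% for divergent and 1.93% for LINC genes, beside 4.20% of all lncRNA genes. The divergent lncRNAs were picked by the name ending -DT and not by position. The conditions on coding starts removed nearly all of their peaks. The lncRNA starts nearest to the ITGB1-DT and DOCK9-DT peaks lay 22614 and 109755 bases from the canonical starts of ITGB1 and DOCK9. For GSK3B-DT this distance was 1183 bases. For LINC genes the counts hardly differed, with 39 and 43 genes.

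**Figure D4:**
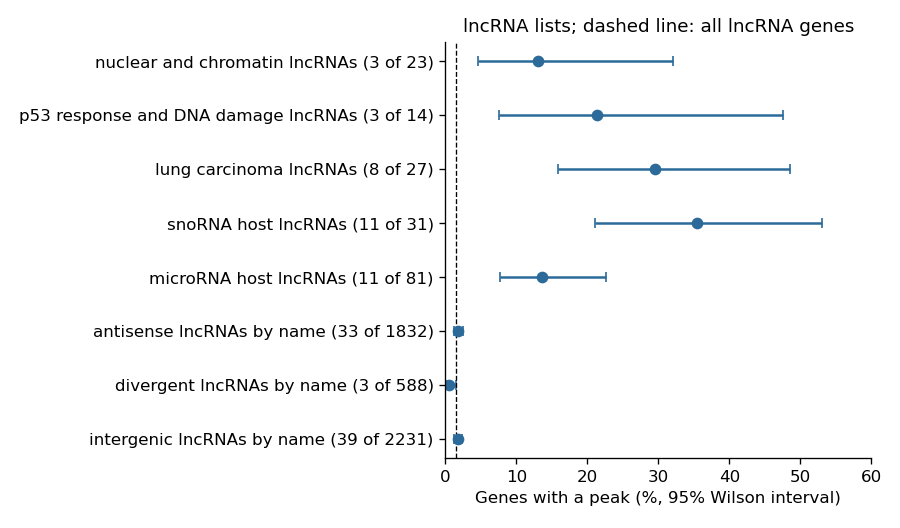
Percent of annotated lncRNA genes with a stand-alone start peak (x axis) for each list (y axis, with the number of genes with a peak of the number annotated); points are shares and bars 95% Wilson intervals, and the dashed line is the 1.45% of all lncRNA genes. The snoRNA hosts are highest at 35.5%, and the 3 groups defined by name lie close to the line.

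The peaks were rich in G and C. Their mean GC content was 60.6% ± 9.57 (SD over 257 peaks), beside 58.8% for all peaks, 66.3% at canonical coding starts and 51.9% at no start. The mean ratio of observed to expected CpG was 0.645 ± 0.251 (SD), beside 0.610, 0.805 and 0.434. With a GC content over 50% and a CpG ratio over 0.6 as the definition of CpG-rich, 158 of the 257 peaks (61.5%, 95% Wilson interval 55.4 to 67.2) were CpG-rich. The shares were 55.7% of all peaks, 90.0% at canonical coding starts, 60.7% at other coding starts and 25.8% at no start. The 257 peaks were thus closer to other coding starts than to canonical ones. The median score was 1.40 for the 158 CpG-rich peaks and 1.28 for the other 99, and LINC00910 was among the 99.

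In 300-base windows, the starts of the 257 peaks were set against all canonical starts, with or without a peak. This measure leaves out the extent of the peak. The mean GC content was 61.0% ± 10.8 (SD, 257 windows), beside 50.7% for the canonical starts of 18680 lncRNA genes and 62.3% for those of 19780 protein-coding genes. The mean CpG ratio was 0.673, beside 0.379 and 0.681. A GC box, the letters GGGCGG on either strand, was in 54.9% of the 257 windows (95% Wilson interval 48.8 to 60.8), 22.6% of all lncRNA windows and 61.5% of all coding windows. The ETS letters CGGAAG were in 21.8%, 10.9% and 25.5%, and the NRF1 core GCATGCGC in 4.28%, 1.57% and 4.25%. For the cyclic AMP response element (CRE), TGACGTCA, the shares were 2.72%, 0.840% and 2.66%. The letters of these 4 motifs all hold a CpG, and the part of base composition in these shares was not tested.

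A TATA box, TATAAA, was in 8.56% of the windows (95% Wilson interval 5.72 to 12.6), beside 15.8% of all lncRNA and 9.65% of all coding windows. CCAAT was in 26.8%, 35.3% and 36.0%. These were the 2 motifs of the 9 whose share lay below both others. The AP-1 letters TGANTCA were in 11.3% of the windows (7.97 to 15.7), nearer to all lncRNA starts (9.99%) than to coding starts (5.42%). The E-box CACGTG, whose letters also hold a CpG, was in 10.9%, 5.48% and 8.78%. The part of base composition in its shares was not tested either. The YY1 letters AAGATGG were in 6.61%, 5.79% and 6.42%. All were searched on both strands, and none contains another. Not every window overlaps its peak. Those of ENSG00000289377, MIR31HG, NORAD and SNHG25, for example, lie wholly upstream of it. The shares therefore describe sequence at the starts, which is not always sequence under a peak. The starts used for the 257 were the nearest ones, of which 119 are not canonical.

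**Figure D5:**
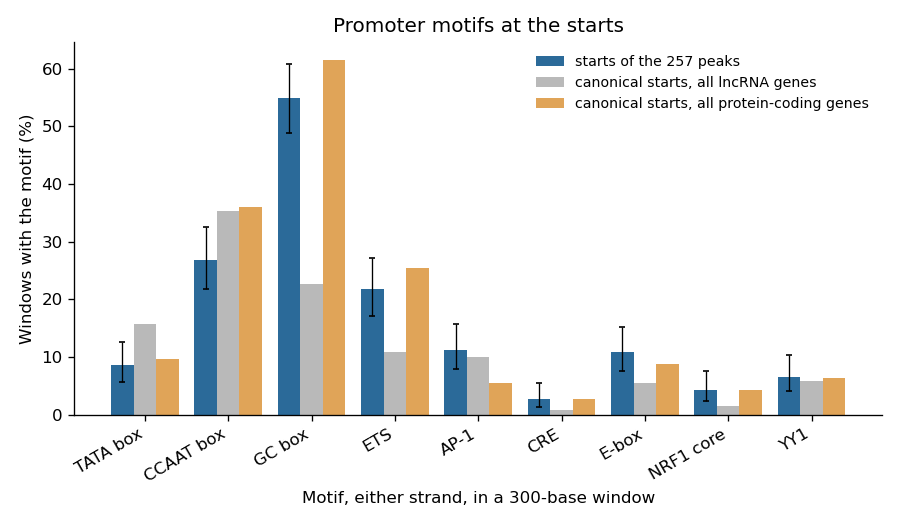
Percent of 300-base start windows (y axis) that hold each motif on either strand (x axis), for the starts of the 257 peaks (blue, bars with 95% Wilson intervals), the canonical starts of all lncRNA genes (grey) and those of all protein-coding genes (orange). The GC box is in 54.9% of the windows of the 257 peaks, beside 22.6% and 61.5%.

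Along the genome, chromosome 1 had 27 of the peaks and chromosome 17 had 26, followed by 19 on chromosome 7 and 18 on chromosome 2. Chromosome 4 had none, although 136 peaks and 866 lncRNA genes lie there, and chromosome X had 1, at JPX. As a share of the lncRNA genes on a chromosome, the highest were 3.52% on chromosome 20, 2.69% on chromosome 17 and 2.53% on chromosome 9. The lowest above 0 were 0.275% on chromosome X and 0.530% on chromosome 6. A549 cells carry extra and lost chromosomes, and copy number was not measured here.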

How the data were processed

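YTHDC1 ChIP-seq was measured in 3 A549 samples. In the study's methods the authors aligned reads to hg19, pooled the 3 read sets and ran MACS2 in broad mode (q-value 0.100, broad cutoff 0.250). The methods name Bowtie2 and the submitters' processing notes name BWA, and the aligner was not settled here. Peak names (mergeID) hint at merging not described in those sources. The deposited score is read as −log10 of the q-value, since its minimum, 0.610, is slightly over 0.602, the −log10 of 0.250. The strand column holds 1 symbol throughout and was not used.

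Peaks were matched to GENCODE release 44 starts on hg19, a later release than the study's, with python 3.11.15, pandas 2.3.3 and pysam 0.24.0, and the matching was tested on simulated peaks. Symbols of 127 of the 272 genes matched RefSeq. Without replicate values or a control no test was made, and depth per sample is unknown. Shares have 95% Wilson intervals and medians order-statistic intervals, for the counting of peaks only. The members and lists were chosen with earlier results of these data known. Named were the 10 strongest and 5 widest peaks, the 5 genes with most peaks, and up to 4 genes with and 2 without a peak for each of the first 5 lists. Other names in lists were given to complete a count. Sequences were planned as start windows for the 5 strongest peaks and 4 listed genes. After the values were seen, peak centres replaced them for ENSG00000289377, MIR31HG and NORAD, and SNHG25 was left out. Alternatives to the window, distance, transcripts, q-value and chromosomes were computed.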

Additional observations from a re-analysis of the deposited data

How the results depend on the processing

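Each of 9 summaries was recomputed under 10 alternatives to the choice of peaks, where it applied, and 82 of 89 values stayed within 1.5 times (counts) or within the 95% interval of the value reported (shares, medians and means). With the midpoint, in place of any base, inside the 200-base window, 159 peaks and 164 genes were left. With peaks of a q-value under 0.05 alone, 138 peaks and 150 genes were left, the median score was 1.96 and the median width 437 bases, as fewer and stronger peaks enter by construction. With 2000 bases to coding starts, 18.5% of the peaks lay inside a protein-coding gene. Windows of 100 or 500 bases, canonical or basic transcripts alone, a distance of 500 bases or from the peak edge, and autosomes alone moved none of the 9 beyond these limits. Leaving out a replicate was not possible, since the file holds 1 pooled peak set. No paired analysis was possible because the samples form 1 group. No input or IgG library was analysed here, and the use of such a control in peak calling is not stated. A score thus cannot be set against a control for local background, copy number or shearing. With 1 pooled set a weak peak seen in 1 replicate cannot be told from a peak seen in all.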
